A study of Mus musculus with 16 samples.

Results

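Melanin synthesis in the eye was followed through 10 pigment genes: Tyr, Tyrp1, Dct, Pmel, Mlana, Slc45a2, Oca2, Slc24a5, Mitf and Gpr143. All non-control probes whose RefSeq accession belongs to one of these genes were taken. These were 13 of 55681 probes and 10 of the 19022 genes tested. All 13 probes were well above background on all 16 arrays and none was saturated, so every member passed the filter on dim probes. RNA had been hybridised to 16 single-colour Agilent arrays from retina and retinal pigment epithelium (RPE) combined from nm3342 mutant or wild-type mice. All mice carried the C57Bl/6J background and were labelled male, and tissue was taken at 1 month or 1 year of age. The 4 groups, mutant and wild type at each age, held 4 arrays each. By its title the study proposes nm3342 mice for modelling serous retinal detachment, where fluid collects beneath the retina. The labels used here do not name the mutated gene or describe the allele, so no targeted gene could check the genotypes. They also do not tie an array to an animal, so p-values measure the spread between these samples.

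Melanin is made inside melanosomes, organelles that the RPE builds itself and that choroidal melanocytes of neural crest origin build separately. Tyrosinase starts the pathway from tyrosine, Tyrp1 and Dct act on its later products, Pmel forms the fibrils on which the polymer settles, and transporters of the melanosome membrane set its ions and pH. In the mouse RPE pigment is laid down mostly around birth, and the finished melanosomes then persist, so adult messenger levels are not a measure of pigment content. Both cell types express these genes, and in RNA from whole tissue fewer cells of a type and less RNA per cell cannot be told apart.

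Mitf binds an M-box, TCATGTG, in front of pigment genes, and the RefSeq promoter table (build GRCm38.p6) was searched for it because the members moved together. The table held an entry for 6 of the 10 genes and none for Pmel, Slc45a2, Mlana and Gpr143. An M-box on either strand lay within 250 bases before the start in 4 of the 6: Tyr, Tyrp1, Dct and Slc24a5. Over 32851 promoters of that length 3.25% held it, and counted by gene, as the members are, 3.72% of 27025 genes did. The motif was already known in front of pigment genes, so its count here is a description and no independent test. The shorter CATGTG, which every M-box contains, stood in 12.3% of the promoters (13.8% of the genes) and also in the Oca2 window. CACGTG stood in 6.02% of the promoters (6.86% of the genes) and in no window of a member. The letters GGATTA, bound by OTX factors, stood in 6.25% of the promoters (7.21% of the genes). Among the members they stood in the Dct window and in 1 of 3 Mitf windows. A match is a string of letters and was not tested for binding. The windows of Tyr, Dct and Slc24a5 are printed whole, as they hold the match at different distances. The Tyr match covered bases -22 to -16 before the start, and Dct had matches at -232 to -226 and -151 to -145. The Slc24a5 match lay at -13 to -7. For Tyrp1, whose match was at -47 to -41, only 10 bases on each side are shown, since the RefSeq gene model also begins further upstream. Capitals mark the M-box and, in Dct, also TAATCC, which is GGATTA on the other strand. Each is given 5′ to 3′ on the gene's strand: Tyr chr7:87493513-87493762 (minus), Dct chr14:118052247-118052496 (minus), Slc24a5 chr2:125067877-125068126 (plus) and Tyrp1 chr4:80834156-80834182 (plus).
Tyr: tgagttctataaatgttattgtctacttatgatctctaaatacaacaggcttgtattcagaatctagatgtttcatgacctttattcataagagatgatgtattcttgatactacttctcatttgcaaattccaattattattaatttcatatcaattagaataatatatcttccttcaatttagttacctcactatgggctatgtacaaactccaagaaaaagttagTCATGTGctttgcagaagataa
Dct: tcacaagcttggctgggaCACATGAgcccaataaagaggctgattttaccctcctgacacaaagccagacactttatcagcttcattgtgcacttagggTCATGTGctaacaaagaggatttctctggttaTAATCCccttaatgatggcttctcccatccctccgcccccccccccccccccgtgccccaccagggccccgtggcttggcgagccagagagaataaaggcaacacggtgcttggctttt
Slc24a5: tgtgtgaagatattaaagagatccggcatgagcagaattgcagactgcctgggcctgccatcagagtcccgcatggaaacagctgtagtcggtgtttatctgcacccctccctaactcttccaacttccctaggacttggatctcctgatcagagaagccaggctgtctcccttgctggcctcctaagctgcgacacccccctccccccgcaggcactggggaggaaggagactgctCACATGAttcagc
Tyrp1: ggggagggagTCATGTGctgcctagta

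Between 82.1% and 89.6% of an array's non-control spots were well above background, and the 4 arrays per group limit the precision. All 12 rod markers and all 15 tested RPE markers of the lists used here were well above background on all 16 arrays. On 3 arrays (replicates 2 and 3 of the 1-month mutants, replicate 1 of the 1-year mutants) sex-linked genes went against the male label. Xist lay between -0.38 and -0.03 there and between -8.61 and -5.68 on the other 13, on the scale described next. Leaving them out left 2 mutants at 1 month and 3 at 1 year, with 133 of 19022 genes called at 1 month instead of 518, 78 at 1 year instead of 163, 12 for the difference between the ages instead of 80, and 275 for ageing in the mutants instead of 1274. Differences without these 3 arrays follow the main results on the mutants. The arrays came from 2 slides, each with 2 arrays of every group, and all 10 genes were higher on slide 2, by 0.14 to 0.33 on average.

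Levels are log2 intensities with 0 set at the array's 75th percentile, and they compare samples for a gene, not genes with each other. The order of the 4 group means differed between the genes. The 1-month wild types had the lowest group mean in 9 genes, and the 1-year mutants in Mlana by a margin well inside the spread. The highest mean was in the 1-year wild types for 6 genes (Tyrp1, Dct, Mlana, Slc45a2, Slc24a5 and Mitf) and in the 1-month mutants for the other 4. Neighbours in this order mostly overlapped. Among the 3 pairs of neighbouring groups of each gene, the arrays lay apart only for Tyr between the 1-year wild types and 1-month mutants, for Dct and Pmel between the second and the third group, and for Slc45a2 and Gpr143 above the 1-month wild types. At 1 month the mutants thus stood above the wild types in all 10 means, and at 1 year below them in 9. Both genotype comparisons and both age comparisons draw on the same 4 groups, so their values are set side by side and are not independent of each other.

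**Figure D1:**
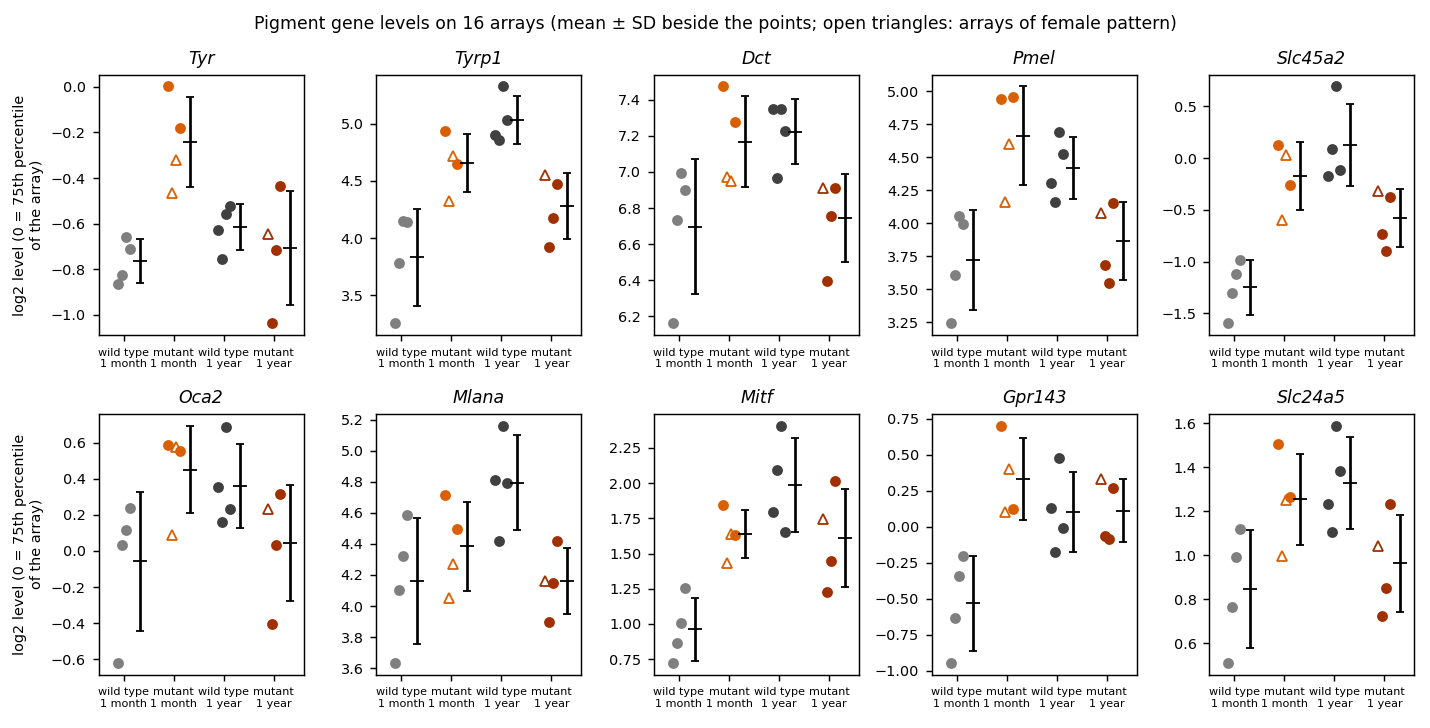
Log2 level (0 = 75th percentile of the array) of each of the 10 pigment genes on the 16 arrays, by group, with the mean and SD (n = 4) beside the points and open triangles for the 3 arrays whose sex-linked genes did not match their label. The 1-month wild types have the lowest mean in 9 of the 10 panels, and in Slc45a2 they run from -1.60 to -0.98, below all other arrays.

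Among the enzymes, Tyr encodes tyrosinase, which makes the first and rate-limiting step. At 1 month Tyr stood at 0.00, -0.46, -0.32 and -0.18 in the mutants and at -0.86, -0.83, -0.66 and -0.71 in the wild types. At 1 year it stood at -0.65, -1.04, -0.71 and -0.43 in the mutants and at -0.63, -0.75, -0.56 and -0.52 in the wild types. The 1-month mutants were above every 1-month wild type, and the groups overlapped at 1 year. Tyr was 0.52 ± 0.12 higher in mutants at 1 month (log2 difference ± SE, limma, adjusted p = 0.0375, a 1.44-fold difference), and the difference at 1 year was -0.09 ± 0.12 (adjusted p = 0.835). With age Tyr fell by 0.47 in the mutants (adjusted p = 0.0354), and in the wild types the change was 0.15 ± 0.12 (adjusted p = 0.467). A second, dimmer Tyr probe gave 0.64 ± 0.16 at 1 month and -0.20 ± 0.16 at 1 year. Without the 3 arrays of female pattern Tyr stood at 0.68 ± 0.15 at 1 month (adjusted p = 0.0754), -0.11 at 1 year and -0.64 for ageing in the mutants (adjusted p = 0.0835), and the second probe at 0.76 and -0.21.

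Tyrp1, which oxidises a later indole intermediate in the mouse, had the largest change of the mutant difference between the ages among the enzymes. Its 1-month levels were 4.94, 4.32, 4.72 and 4.65 in the mutants and 3.25, 3.78, 4.15 and 4.14 in the wild types. At 1 year they were 4.56, 3.92, 4.18 and 4.48 in the mutants and 4.90, 4.86, 5.33 and 5.04 in the wild types. The groups did not overlap at either age, with the mutants above at 1 month and below at 1 year. Tyrp1 was 0.83 ± 0.20 higher in mutants at 1 month (adjusted p = 0.0463). At 1 year the difference was -0.75 ± 0.20 and did not pass the threshold (adjusted p = 0.111). In the wild types Tyrp1 rose with age by 1.20 ± 0.20 (2.30-fold, adjusted p = 0.00130), against a change of -0.37 ± 0.20 in the mutants (adjusted p = 0.316). Leaving out the arrays of female pattern gave 0.96 ± 0.25 at 1 month (adjusted p = 0.140), -0.84 ± 0.22 at 1 year (adjusted p = 0.186) and -0.60 with age in the mutants.

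Dct, dopachrome tautomerase, differed in the same directions by less than Tyrp1. Its levels at 1 month were 7.47, 6.97, 6.95 and 7.28 in the mutants and 6.16, 6.73, 7.0 and 6.90 in the wild types. At 1 year they were 6.91, 6.40, 6.76 and 6.91 in the mutants and 7.35, 6.97, 7.35 and 7.23 in the wild types. The groups overlapped at 1 month and lay apart at 1 year. No Dct comparison passed the threshold: the mutant differences were 0.47 ± 0.18 (adjusted p = 0.227) and -0.48 ± 0.18 (adjusted p = 0.307). The second Dct probe gave 0.49 ± 0.19 and -0.53 ± 0.19. With the arrays of female pattern left out the differences were 0.68 and -0.53, and 0.67 and -0.59 for the second probe.

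Of the proteins that form the melanosome's body, Pmel builds its fibrils and Mlana is a membrane protein that assists Pmel. At 1 month Pmel stood at 4.94, 4.16, 4.60 and 4.95 in the mutants and at 3.24, 3.61, 4.06 and 4.00 in the wild types. At 1 year it stood at 4.08, 3.68, 3.55 and 4.15 in the mutants and at 4.30, 4.16, 4.69 and 4.52 in the wild types. As for Tyrp1, the groups lay apart at both ages, in opposite order. Pmel was 0.94 ± 0.22 higher in mutants at 1 month (1.92-fold, adjusted p = 0.0342), and the difference at 1 year was -0.55 ± 0.22 (adjusted p = 0.319). It rose with age in the wild types by 0.70 ± 0.22 (adjusted p = 0.0495) and fell by 0.80 in the mutants (adjusted p = 0.0403). Mlana overlapped at both ages, from 4.05 to 4.71 in mutants and 3.64 to 4.59 in wild types at 1 month. Its mutant differences were 0.22 ± 0.21 (adjusted p = 0.666) and -0.64 ± 0.21 (adjusted p = 0.205). Pmel without the arrays of female pattern stood at 1.22 ± 0.24 at 1 month (adjusted p = 0.0467), -0.62 at 1 year and -1.15 with age in the mutants (adjusted p = 0.0518), and Mlana at 0.44 and -0.64 at the 2 ages.

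The transporters were led by Slc45a2, which keeps melanosomes from becoming too acidic for tyrosinase. At 1 month Slc45a2 stood at 0.13, -0.60, 0.03 and -0.26 in the mutants and at -1.60, -1.30, -1.12 and -0.98 in the wild types. At 1 year it stood at -0.32, -0.73, -0.90 and -0.37 in the mutants and at -0.17, 0.09, 0.69 and -0.11 in the wild types. The 1-month wild types were below all 12 other arrays, and at 1 year the mutants were below the wild types without overlap. Slc45a2 was 1.07 ± 0.21 higher in mutants at 1 month (2.10-fold, adjusted p = 0.0159), and the difference at 1 year was -0.70 ± 0.21 (adjusted p = 0.169). It rose with age by 1.37 ± 0.21 in the wild types (2.59-fold, adjusted p = 0.000673), and the change in the mutants was -0.41 ± 0.21 (adjusted p = 0.300). Oca2, which carries the melanosome's chloride conductance, ran from 0.09 to 0.59 in mutants and -0.62 to 0.24 in wild types at 1 month. Slc24a5, a potassium-dependent sodium and calcium exchanger, ran from 0.99 to 1.5 in mutants and 0.51 to 1.12 in wild types. Neither passed the threshold in any comparison, and their mutant differences were 0.51 ± 0.20 and 0.41 ± 0.15 at 1 month and -0.31 ± 0.20 and -0.36 ± 0.15 at 1 year. Slc45a2 without the arrays of female pattern stood at 1.18 ± 0.25 at 1 month (adjusted p = 0.0685), -0.79 ± 0.22 at 1 year and -0.60 with age in the mutants. Oca2 then stood at 0.63 and -0.38 and Slc24a5 at 0.54 and -0.39 at the 2 ages.

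The regulators were Mitf, the transcription factor of pigment cells, and Gpr143, a receptor of the melanosome membrane that limits melanosome size and is encoded on the X chromosome. At 1 month Mitf stood at 1.85, 1.43, 1.64 and 1.63 in the mutants and at 0.72, 0.86, 1.01 and 1.25 in the wild types. At 1 year it stood at 1.75, 1.22, 1.45 and 2.02 in the mutants and at 1.80, 2.09, 2.41 and 1.65 in the wild types. The 1-month groups did not overlap, but the difference of 0.68 ± 0.19 did not pass the threshold (adjusted p = 0.0767). In the wild types Mitf rose with age by 1.02 ± 0.19 (2.03-fold, adjusted p = 0.00231), and the change in the mutants was -0.03 ± 0.19 (adjusted p = 0.952). The other Mitf probe disagreed at 1 month, with a mutant difference of -0.15 ± 0.20. That probe gave -0.36 ± 0.20 at 1 year and a wild-type age change of 0.55 ± 0.20, so with all arrays the 1-month rank of the mutants holds for 1 Mitf probe only. The first probe without the arrays of female pattern gave 0.78 ± 0.25 at 1 month (adjusted p = 0.257), -0.42 at 1 year and -0.18 with age in the mutants. The second probe then turned positive at 1 month, at 0.13 ± 0.21, and stood at -0.24 at 1 year, with no call.

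Gpr143 stood at 0.70, 0.10, 0.40 and 0.13 in the mutants and at -0.95, -0.64, -0.34 and -0.20 in the wild types at 1 month. At 1 year its levels were 0.33, -0.06, -0.09 and 0.27 in mutants and 0.13, -0.18, 0.48 and -0.01 in wild types. The 1-month wild types were again below all other arrays, and the 1-year groups covered the same range. Gpr143 was 0.86 ± 0.19 higher in mutants at 1 month (1.82-fold, adjusted p = 0.0251), and the difference at 1 year was 0.01 ± 0.19 (adjusted p = 0.993). It rose with age by 0.64 ± 0.19 in the wild types (adjusted p = 0.0392), against -0.22 ± 0.19 in the mutants (adjusted p = 0.549). Its differences without the arrays of female pattern were 0.95 ± 0.24 at 1 month (adjusted p = 0.132), -0.066 at 1 year and -0.38 with age in the mutants.

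**Figure D2:**
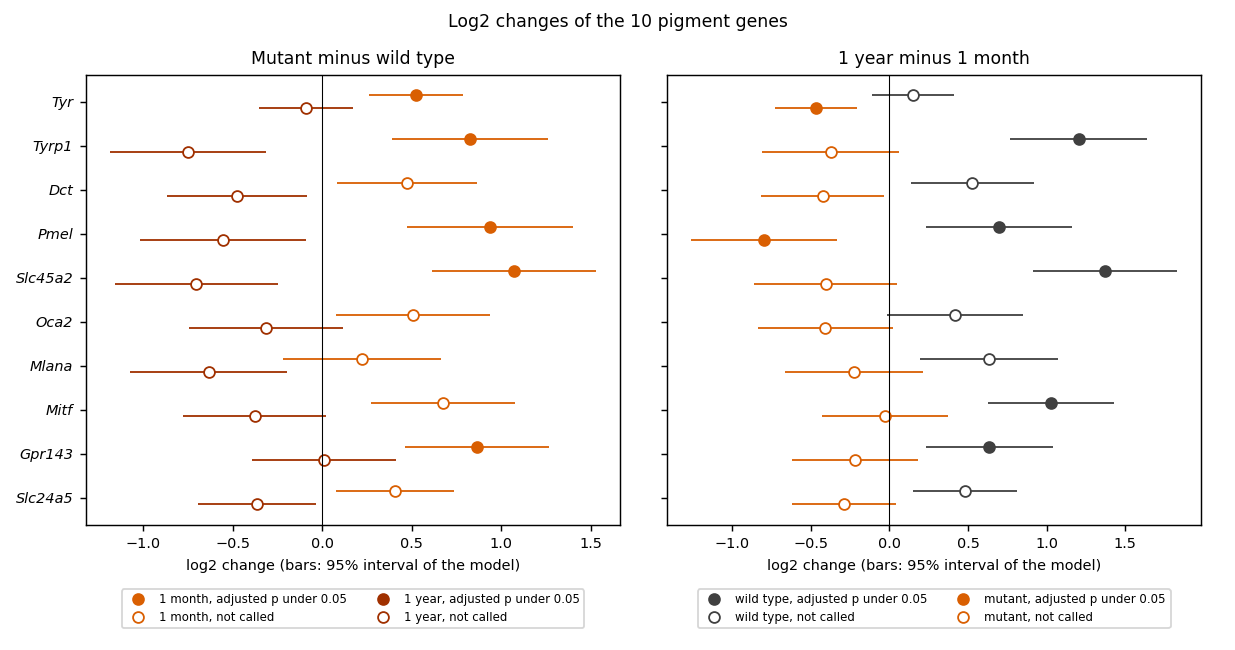
Log2 changes of the 10 pigment genes with the model's 95% intervals, mutant minus wild type at each age on the left and 1 year minus 1 month in each genotype on the right. Filled points passed an adjusted p under 0.05. All 10 points lie above 0 at 1 month and for ageing in wild types, 9 lie below 0 at 1 year, and all 10 lie below 0 for ageing in mutants.

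Counted together, 5 of the 10 genes were called higher in mutants at 1 month (Tyr, Tyrp1, Pmel, Slc45a2 and Gpr143), where 2.03% of all genes were called higher. In 6 genes, these 5 and Mitf, all mutants lay above all wild types, against 5.85% of all genes. The median difference was 0.60, beside 0.02 over all genes tested. Leaving out single arrays moved this count: no gene was called without mutant replicate 1, mutant replicate 3 or wild-type replicate 1, 1 without wild-type replicate 2, and 2 without mutant replicate 4. Of the 8 fits that each left out 1 array, Slc45a2 passed in 5, Gpr143 in 4, Tyrp1 and Pmel in 3 each and Tyr in 1. Over these 8 fits the median lay between 0.53 and 0.69, and between 227 and 931 of all genes were called. At the unadjusted p under 0.05, 9 of 10 genes passed, against 15.2% of all genes. Without the arrays of female pattern 1 gene was called, Pmel (1.22, adjusted p = 0.0467), with a median of 0.73. The median was 0.71 on slide 1 alone, with 0 genes called, and 0.57 on slide 2 alone, with 1. With 2 arrays a group, only 1 of all 19022 genes was called on slide 1 and 17 on slide 2. Slide 2 held all its mutants in row 2 and all its wild types in row 1, and with the row as a covariate 2 genes were called, where 522 of all genes were. With the female pattern as a covariate 0 were called (244 of all genes), and 5 with slide as a block besides (311 of all genes). With every probe tested separately, Slc45a2 (adjusted p = 0.0297) and Gpr143 (0.0446) passed, and Tyr (0.0704), Tyrp1 (0.0782) and Pmel (0.0581) did not.

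At 1 year 0 of the 10 genes were called by limma, where 0.857% of all genes were called in either direction, and 6 had an unadjusted p under 0.05, against 11.4% of all genes. In 4 genes (Tyrp1, Dct, Pmel and Slc45a2) all mutants lay below all wild types, against 3.43% of all genes. The median difference was -0.43, beside -0.01 over all genes, and it was -0.48 without the array of female pattern. It was -0.69 on slide 1 alone and -0.19 on slide 2 alone. With normexp background correction and quantile normalization 1 gene was called, Tyrp1, where 287 of all genes were called.

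The change of the genotype effect between the ages was tested directly. It was negative in all 10 genes, with a median of -0.90 beside -0.02 over all genes. Slc45a2 (-1.78 ± 0.30, adjusted p = 0.0198) and Tyrp1 (-1.58 ± 0.29, adjusted p = 0.0305) passed the threshold, where 0.279% of all genes were called lower. All 10 genes had an unadjusted p under 0.05, against 10.8% of all genes. Pmel followed at -1.49 ± 0.31 (adjusted p = 0.0516). No gene was called without mutant 1-month replicate 1 or mutant 1-year replicate 3. Only 1 was called without mutant 1-month replicate 3, mutant 1-year replicate 2, wild-type 1-month replicate 2, or wild-type 1-year replicate 1 or 3. Of all genes, 33 were called without mutant 1-month replicate 1 and 46 without mutant 1-month replicate 3, beside 80 with all arrays. Without the 3 arrays of female pattern none of the 10 genes was called, and Slc45a2 stood at -1.97 (adjusted p = 0.0779) and Tyrp1 at -1.80 (adjusted p = 0.101). The median was -1.24 on slide 1 alone and -0.57 on slide 2 alone, with 0 genes called on each, where 1 of all 19022 genes was called on slide 1 and 0 on slide 2.

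With age in the wild types 5 genes rose (Tyrp1, Slc45a2, Mitf, Pmel and Gpr143), where 7.31% of all genes were called higher, and the median change was 0.63 beside -0.03 over all genes. In these 5 genes all 1-year wild types lay above all 1-month ones, against 9.17% of all genes. At the unadjusted p under 0.05, 8 of 10 genes passed, against 26.4% of all genes. Tyrp1, Slc45a2 and Mitf passed in each of the 8 fits that left out 1 array. The count was 3 without wild-type 1-month replicate 1 or 2 or wild-type 1-year replicate 1, 3 or 4. On slide 1 alone the median was 0.93 and on slide 2 alone 0.34, with 2 genes called on each, where 189 and 725 of all genes were called. In the mutants 2 genes fell with age (Tyr and Pmel), where 2.93% of all genes were called lower, and the median change was -0.39 beside -0.05 over all genes. At the unadjusted p under 0.05, 3 of 10 genes passed there, against 21% of all genes. In 2 genes (Dct and Pmel) all 1-year mutants lay below all 1-month ones, against 6.4% of all genes. No gene was called there without mutant 1-month replicate 1, 3 or 4 or mutant 1-year replicate 1, 2 or 3. Of all genes, 847, 784 and 1924 were called without mutant 1-month replicate 1, 3 and 4, beside 1274 with all arrays. Without mutant 1-year replicate 1 the number was 1034. Without the arrays of female pattern none of the 10 genes was called, and the median was -0.59. It was -0.41 on slide 1 alone and -0.30 on slide 2 alone, with 0 genes called on each, where 37 and 162 of all genes were called.

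The genes also varied together among arrays of the same group. Over the 45 pairs of members the correlation across 16 arrays had a median of 0.81 and ran from 0.47 to 0.95. Taken as deviations from the group means it had a median of 0.82 and ran from 0.53 to 0.95. Over the 13 arrays without the female pattern these medians were 0.83 and 0.80. The genes of a point share the same tissue sample and the same array scaling. Slc24a5 had the highest median correlation with the other members (0.91) and Tyr the lowest (0.70). The mean of the 10 genes, each centred on its own average, ran from -0.82 to -0.14 in wild types and -0.07 to 0.51 in mutants at 1 month. At 1 year it ran from 0.12 to 0.61 in wild types and -0.41 to 0.12 in mutants. Of the mutants without the female pattern, those at 1 month ran from 0.28 to 0.51. The spread inside a group was wide for these genes. At 1 month the median SD of the members was 0.35 in wild types and 0.25 in mutants, beside 0.20 and 0.19 over all genes.

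Genes with clone, RIKEN, Gm or LOC names were left out of the next ranking. Of the rest outside the list, 10 were named, as a description, for the highest Pearson correlation with the pigment mean over the 16 arrays. They were Kcnj13 (0.93), Tspan10 (0.92), Mgll (0.92), St3gal6 (0.90), Rexo2 (0.89), Sec24d (0.87), Lhfpl2 (0.85), Sytl2 (0.85), Serpinh1 (0.84) and Rdh10 (0.84). Inside groups the correlation was 0.97 for Kcnj13, a potassium channel of the RPE, and 0.72 for Rdh10, a retinol dehydrogenase. Kcnj13 differed by 0.58 at 1 month and -0.11 at 1 year. Over the 13 arrays without the female pattern the 10 correlations ran from 0.85 (Rdh10) to 0.95 (Mgll).

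Genes that serve the melanosome without making melanin had medians nearer to 0 at 1 month, when 2.03% of all genes were called higher. Of 22 genes of melanosome biogenesis, 1 was called higher in mutants at 1 month, Rab38 (0.75 ± 0.17, adjusted p = 0.0359), which sorts Tyr and Tyrp1 to the organelle, and the list median was 0.07. Of 7 genes of melanosome transport 1 was called, Rab27a (0.54 ± 0.13, adjusted p = 0.0380), with a median of 0.14. None of the 6 ion and thiol transport genes was called (median 0.01) and none of the 8 RPE transcription factors (median 0.06), where Otx2 stood at 0.08 ± 0.10. Of 11 genes of the melanocyte lineage and its signals 1 was called, Cited1 (0.80 ± 0.15, adjusted p = 0.0146), with a median of 0.33. With 1 of the 8 arrays left out at a time, Cited1 passed in 7 fits (not without mutant replicate 1), Rab38 in 3 and Rab27a in 2, and both of these were lost without mutant replicate 1 or 4 or wild-type replicate 1, 2 or 4, Rab27a also without mutant replicate 3. Without the arrays of female pattern Rab38 was called (1.01, adjusted p = 0.0467), and Rab27a (0.65, adjusted p = 0.122) and Cited1 (0.78, adjusted p = 0.140) were not. At 1 year no gene of these 5 lists was called, with all arrays or without those of female pattern, and with all arrays their medians lay between -0.17 and -0.01.

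With age the melanocyte lineage list split. Of all genes 7.31% were called higher and 5.05% lower in the wild types, and 3.77% higher and 2.93% lower in the mutants. In the wild types Edn3 (1.46), a ligand that supports melanocytes, Gpnmb (1.35), Cited1 (0.66) and Sox10 (0.59) rose, and Mc1r, the melanocortin receptor, fell by 1.14. In the mutants Mc1r fell by 1.11 and Ednrb, the receptor of Edn3, fell by 0.66. The change of the genotype effect passed for Edn3 (-1.37 ± 0.26, adjusted p = 0.0323) and for no other gene of the list (Edn3 in 8 of 16 fits with 1 array left out, and at -1.53 with an adjusted p of 0.126 without the arrays of female pattern), with Sox10 at -0.68 ± 0.16 (adjusted p = 0.0841). Of the 22 biogenesis and 7 transport genes 5 rose in the wild types. Rab38 (0.96), Rab32 (0.86) and Mlph (0.85) passed in each of 8 fits with 1 array left out, Ap3b1 (0.23) in 2 and Rab27a (0.42) in 1. In the mutants Rab32 (0.51) rose and Myo7a, an RPE melanosome motor, fell by 0.49, both in each of 8 such fits, while Hps4 fell by 0.27 and passed in 2. Ednrb passed in 5 of 8 fits there, and without the arrays of female pattern Myo7a alone of these mutant calls remained (-0.52, adjusted p = 0.0493).

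**Figure D3:**
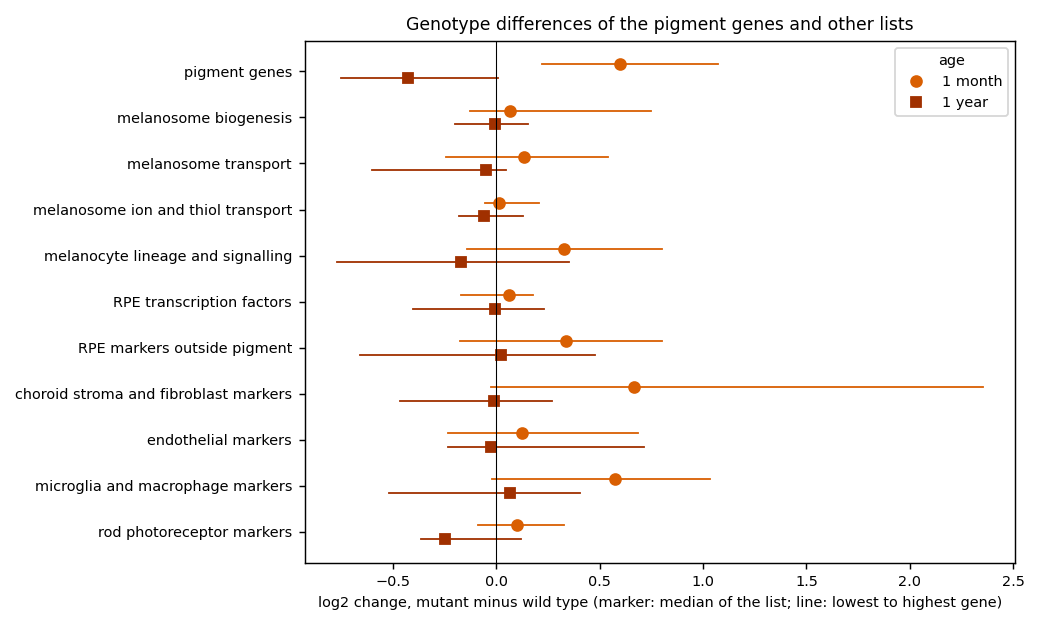
Median log2 difference, mutant minus wild type, of the pigment genes and of 10 other gene lists at 1 month (circles) and 1 year (squares), with lines from the lowest to the highest gene. The pigment genes have a median of 0.60 at 1 month and -0.43 at 1 year, and the melanosome biogenesis list stays at 0.07 and -0.01. Markers of Müller glia, Schwann cells, muscle, lens and cornea, erythrocytes, and iris and ciliary body are not drawn and are described in the text.

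At 1 month markers of the tissues that carry pigment were mostly higher in mutants, as the pigment genes were. At 1 year their medians were 0.02 (RPE) and -0.01 (choroid stroma), beside -0.43 for the pigment genes. The genotype effect changed between the ages by a median of -0.50 (RPE) and -0.79 (choroid stroma), beside -0.90 for the pigment genes. The change was positive in 3 of 15 RPE markers, with none called, and in 1 of 10 stroma markers. Of the latter Col3a1 and Postn were called lower, 2 of 10, where 0.279% of all genes were. Without the arrays of female pattern these 2 medians were -0.69 and -1.04, with no call. The part of these markers in the result was not tested. Of 15 RPE markers outside pigment, 4 were called higher in mutants at 1 month, against 2.03% of all genes. They were Rlbp1 (0.58), Slc16a8 (0.80), Ttr (0.72) and Rdh5 (0.66). Rlbp1 passed with any 1 array left out, Slc16a8 did not pass once replicate 1 of either genotype was removed, Ttr without these or mutant replicate 3, and Rdh5 passed in 3 of 8 fits. Without the arrays of female pattern none of the 15 was called at 1 month, with a median of 0.45. With all arrays the median was 0.34, while Rpe65, the isomerase of the visual cycle, stood at -0.18 ± 0.17 (adjusted p = 0.684) and Lrat at 0.02 ± 0.20. The list's mean centred level at 1 month ran from -0.58 to -0.13 in wild types and -0.10 to 0.27 in mutants, and at 1 year from -0.15 to 0.31 and -0.15 to 0.19. At 1 year none of the 15 was called and the median was 0.02, and Rpe65 stood at -0.66 ± 0.17 (adjusted p = 0.0992). Ageing in the wild types had 5 of the 15 called higher, against 7.31% of all genes. Of the 15, 13 rose there, with a median of 0.42, beside 0.63 for the pigment genes. In the mutants none was called with age, and the median was -0.06. Across the 16 arrays the RPE list mean correlated with the pigment mean at 0.86, and inside groups at 0.81. Over the 13 arrays without the female pattern these values were 0.87 and 0.77.

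Of 10 markers of choroid stroma and fibroblasts, 3 were called higher in mutants at 1 month, against 2.03% of all genes. They were Col3a1 (2.35), Postn (1.78) and Lum (1.17). The list median was 0.66, with 7 of 10 higher in mutants. Col3a1 and Postn passed with any 1 array left out, and Lum in 3 of 8 fits. Col3a1 (2.21) and Postn (1.69) were called without the arrays of female pattern. Ageing in the wild types had 2 of the 10 called higher, against 7.31% of all genes, with a median of 0.01. This list at 1 month ran from -0.70 to -0.11 in wild types and 0.32 to 0.63 in mutants, and at 1 year from -0.28 to 0.40 and -0.46 to 0.28. Its correlation with the pigment mean was 0.61 across arrays and 0.41 inside groups, and 0.63 and 0.38 over the 13 arrays. Wild-type 1-month replicate 1 was the lowest array for the pigment genes (-0.82) and also for the RPE (-0.58) and stroma lists (-0.70). Without it the median pigment difference at 1 month was 0.54, with 0 genes called.

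The other marker lists were set beside the pigment genes for the same reason. At 1 year no microglia or macrophage marker was called. At 1 month 6 of 9 were called higher in mutants, against 2.03% of all genes, with a median of 0.57. Of these Aif1, Csf1r and Laptm5 passed in each of 8 fits with 1 array left out, C1qc in 5, C1qa in 3 and Mrc1 in 1. Aif1 (1.19) and Csf1r (0.73) were called without the arrays of female pattern. The microglia mean correlated with the pigment mean at 0.51 across the 16 arrays and at 0.66 inside groups. The genotype effect on these markers changed between the ages by a median of -0.58, positive in 1 of 9 and with none called. Of the 9, 8 had an unadjusted p under 0.05, against 10.8% of all genes. Ageing in the wild types had 8 of 9 called higher, against 7.31% of all genes, with a median of 1.42. Of 10 endothelial genes 1, Kdr, was called at both ages, and 1 of 8 muscle genes, Acta1 (1.81), and 1 of 7 iris and ciliary body genes, Cdh3 (0.70), at 1 month. Kdr passed in each of 8 fits at either age, Cdh3 in 7 and Acta1 in 3, and Kdr alone of these was called without the arrays of female pattern. All 8 muscle genes were higher in mutants at 1 month, with a median of 0.66, beside 0.60 for the pigment genes. The muscle mean overlapped there, from -1.47 to -0.24 in wild types and -0.45 to 0.65 in mutants. At 1 year 7 of the 8 were higher in mutants, with a median of 0.30 and none called. Ageing in the wild types gave the muscle genes a median of 0.90, with 1 of 8 called higher, against 7.31% of all genes. The part of muscle tissue in the result was not tested. None of the 12 rod, 8 Müller glia, 7 Schwann cell, 8 lens and cornea or 3 erythrocyte markers was called at 1 month. The medians of these 5 lists were 0.10, 0.09, 0.00, -0.73 and 2.13. At 1 year all 8 lens and cornea markers were higher in mutants, with a median of 1.83. None was called or had an unadjusted p under 0.05. Their mean overlapped, from -3.23 to 0.26 in wild types and -1.68 to 1.58 in mutants. The change of their genotype effect between the ages was positive in all 8 (median 2.61), with none called. Ageing in the wild types gave them a median of -3.60, with 3 of 8 called lower, against 5.05% of all genes. The part of lens and cornea tissue in the result was not tested. At 1 year 11 of the 12 rod markers were lower in mutants, with a median of -0.25. Of the 12, 11 had an unadjusted p under 0.05, against 11.4% of all genes. The rod mean ran from -0.31 to -0.11 in mutants and from -0.0014 to 0.099 in wild types, without overlap, beside the lower pigment means at that age. Its part in the result was not tested. Of the rod markers 1 was called, Gnat1, a subunit of rod transducin, at -0.33 (adjusted p = 0.0246), and it passed in 1 of 8 fits with 1 array left out. Without the array of female pattern none was called, and the median was -0.28. With age in the mutants 6 of the 12 rod markers fell, against 2.93% of all genes called lower, with a median of -0.29. None of the 12 was called without the arrays of female pattern (median -0.25). Crym of the Müller glia list was called at 1 year at 0.91, in each of 8 fits and without the array of female pattern. The pigment mean correlated with the rod mean at 0.35 across the 16 arrays and 0.19 inside groups, and with the Müller glia mean at 0.16 and 0.51. Over the 13 arrays without the female pattern the values inside groups were 0.33 for rods, 0.76 for Müller glia and 0.60 for microglia.

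**Figure D4:**
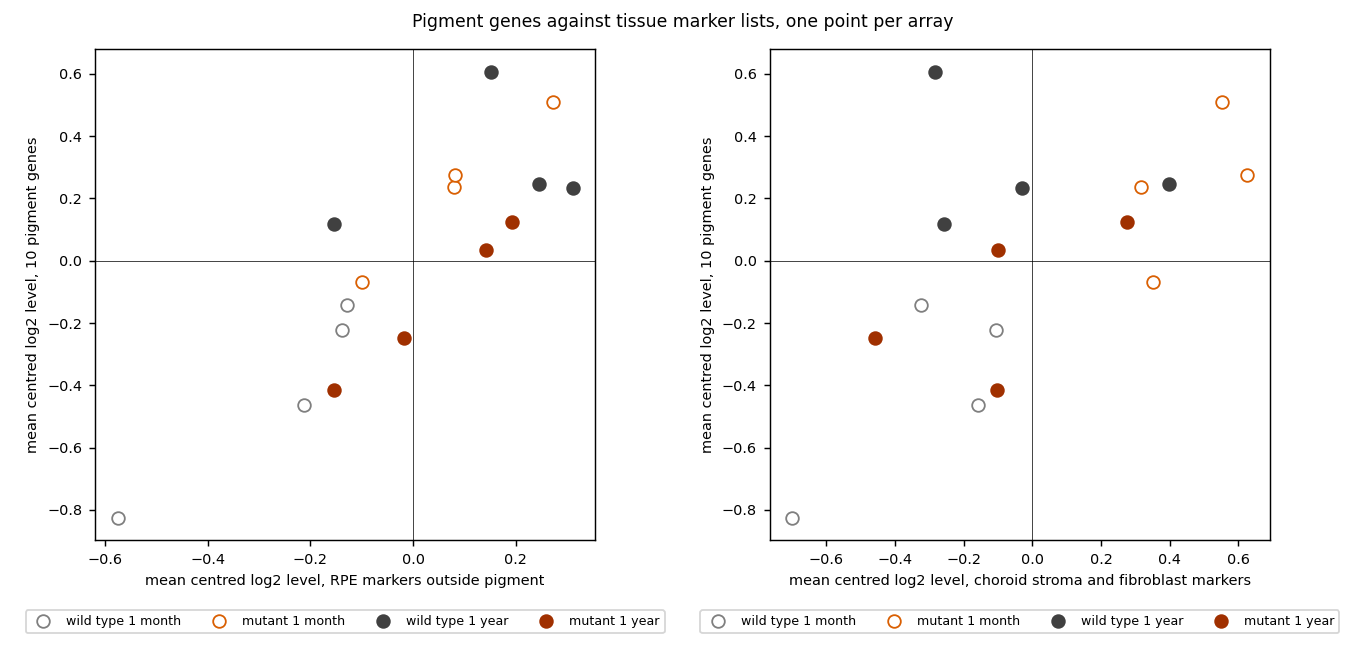
Mean centred log2 level of the 10 pigment genes against that of 15 RPE markers (left) and of 10 choroid stroma and fibroblast markers (right), 1 point for each of the 16 arrays, by group. The correlation is 0.86 on the left and 0.61 on the right, and the lowest point in both panels is wild-type 1-month replicate 1 at -0.82.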

How the data were processed

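Spot intensity in the deposited scanner files had its background subtracted by the scanner software, which the submitters' processing notes give as Agilent Feature Extraction 11.0.1.1. The authors also deposited a table of log2 values, with the software and normalization not given in the sources used here. At 9 quantiles from the lowest to the highest value its 16 columns differed by at most 0.0048, and their direction and scale followed the scanner values.

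Processed intensity was log2 transformed, each array's 75th percentile was subtracted, and spots of a probe were averaged without control spots and outlier spots. Probes were named through RefSeq accessions (27235 of 55681 matched 1 gene). Probes well above background on at least 4 arrays were kept (49230), and each gene was represented by its probe with the highest mean. A model with 4 group means was fitted to 19022 genes with limma 3.58.1 in R 4.3.3, two-sided, with Benjamini-Hochberg adjustment over all genes and calls at an adjusted p under 0.05. Errors beside changes are the model's SEs. The procedure was tested on simulated data.

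The members and the gene lists were chosen with earlier results of these data known. All 10 members are described with every probe. From other lists the first members as written and called members were named. The genes most like the members are those with the highest correlations, with clone, RIKEN, Gm and LOC names left out. Alternatives were quantile normalization, normexp, the authors' table, other filters, the mean of probes, slide, row and replicate number as covariates or blocks, and leaving out arrays. Normexp used each spot's median signal. The slide block together with the female pattern was added after seeing the data.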

Additional observations from a re-analysis of the deposited data

Results flagged for a closer look

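Oca2 in 1-month mutant replicate 2 stood at 0.087, against 0.55 to 0.59 in the other 3 arrays of its group, a gap that was large for the group's range. It was the only array to stand apart among 44 sets of 4 arrays looked at in this way, and chance singles out about 1 in 20. That array is among the 3 whose sex-linked genes did not match the male label, and the part of this in the value was not tested.

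The genotype effect differed between the ages, by limma's test of the difference, for Slc45a2 (-1.78) and Tyrp1 (-1.58). All 4 mutant arrays lay above all 4 wild types at 1 month and below them at 1 year for both genes.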

How the results depend on the processing

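Alternatives changed how many of the 10 genes were called more than the direction. Over 22 alternatives no gene changed sign for the genotype difference at 1 month or for ageing in the wild types, and over 30 none did for the difference between the genotype effects. With quantile normalization, with normexp, and with slide as a block, alone or together with the female pattern, 8 genes rose with age in the wild types instead of 5. Of all genes, 2732 (quantile), 2735 (normexp) and 2321 (slide block alone) were called there in either direction, beside 2352 in the main fit. Normexp also called 1 gene at 1 year (Tyrp1), where 287 of all genes were called. Ageing in the mutants had 0 genes called in the authors' table and 1 with the mean of all probes or with array row as a covariate, instead of 2. Of all genes, 1273, 1319 and 1195 were called there in these settings, beside 1274 in the main fit. Row left 2 genes at 1 month and the female pattern as a covariate 0, instead of 5, while slide block and female pattern together left 5.

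Without the 3 arrays of female pattern 1 gene was called at 1 month, 0 for the difference between effects (median -1.14) and 0 for ageing in the mutants. Only 1, 1, 189 and 37 of all 19022 genes were called on slide 1 alone, and 17, 0, 725 and 162 on slide 2 alone, at 1 month, for the difference, and for ageing in wild types and mutants. On slide 1 alone 0 genes were called at 1 month, 0 for the difference (median -1.24), 2 for ageing in the wild types (median 0.93) and 0 in the mutants, and the 1-year median was -0.69. On slide 2 alone the counts were 1, 0, 2 and 0, and the medians -0.57 for the difference, 0.34 for ageing in the wild types and -0.19 at 1 year. Leaving out single arrays gave 0 to 5 genes at 1 month, 0 to 3 for the difference, 3 to 7 for ageing in the wild types and 0 to 2 in the mutants.

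The values that changed sign were small and not called. Mitf ageing in the mutants was 0.15 with the mean of probes, 0.14 on slide 2 and -0.16 to 0.10 with an array left out. Gpr143 at 1 year was -0.22 on slide 1, -0.066 without the arrays of female pattern, -0.000395 with that covariate and -0.087 to 0.13 with an array left out. Tyr at 1 year was 0.035 on slide 2 and -0.18 to 0.017 with an array left out, and Mitf at 1 year was 0.16 on slide 2. The cause was not tested.

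The same replicate number did not pair arrays of different groups. Over 24 such pairs the correlation of deviations had a median of -0.01 and exceeded 0.1 in 5, and 2 of 16 arrays correlated best with their own number. With the replicate block 1 gene was called for the difference between effects instead of 2, with 4, 0, 6 and 2 called at 1 month, at 1 year, and for ageing in wild types and mutants. Precision is limited by the 4 arrays in a group.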
